A study of Mus musculus with 6 samples.

Results

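The miR-297, miR-466, miR-467 and miR-669 families are mouse microRNAs (miRNAs) most of whose genes lie in a single intron of Sfmbt2, a Polycomb-group gene. They were chosen here by name: every row of the deposited count table named miR-297, miR-466, miR-467 or miR-669 followed by a letter or a hyphen, in either arm, with a row that joins several names counted once. The rule gave 61 rows among 1573 rows of known miRNAs, 26 of them miR-466, 19 miR-669, 11 miR-467 and 4 miR-297, with 1 row that joins miR-669m-5p and miR-466m-5p. Because 7 rows join names, the 61 rows carry 70 names. Small RNA was sequenced from primary peritubular myoid cells, the contractile cells around the seminiferous tubules, of C57BL/6J mice. The cells were grown in DMEM/F12 with fetal bovine serum, and RNA was extracted with TRNzol. Of 6 libraries, 3 came from cells left untreated and 3 from cells given 50 nM ET1 (endothelin-1), a peptide that contracts smooth muscle, for 5 min. The labels do not say whether the libraries of a group came from separate mice or cultures, nor whether mice were pooled.

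A miRNA is cut from a hairpin, whose 5p and 3p arms can each be loaded into an Argonaute protein, and the bases next to its 5′ end, the seed, do most of the pairing with target mRNAs. The Sfmbt2 hairpins are a rodent expansion of near-identical copies rich in alternating U and G on the 5p side and A and C on the 3p side. Sfmbt2 is imprinted and expressed from the paternal copy in the extraembryonic lineage, and the cluster is best known for its part in placental growth.

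Of the 70 names, 8 had a mature sequence in the RefSeq table used here (GRCm38.p6). All 8 come from precursors outside Sfmbt2, so no sequence of a member encoded there is shown. They are given because low sequence complexity sets how well one member can be told from another, which bears on the counts below. How far the 8 stand for the members encoded in Sfmbt2 was not tested. Each is written 5′ to 3′ with the seed, bases 2 to 8, in capitals.
miR-466i-3p: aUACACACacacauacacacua
miR-466q: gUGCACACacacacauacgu
miR-467f: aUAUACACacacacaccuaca
miR-467g: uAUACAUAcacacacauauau
miR-466k: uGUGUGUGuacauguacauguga
miR-466j: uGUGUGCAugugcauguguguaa
miR-669n: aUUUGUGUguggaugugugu
miR-467h: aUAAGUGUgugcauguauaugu
The first 4 hold runs of alternating A and C, and A or C made up 86.4% of the bases of miR-466i-3p and 85.7% of those of miR-467f. The last 4 are rich in U and G, which made up 90.0% of miR-669n and 68.2% of miR-467h. An unbroken alternation of A and C over at least 8 bases occurred in 4 of the 1679 mature mouse names of the table (0.238%), and all 4 were members. The same for U and G occurred in 9 names (0.536%), of which miR-466k and miR-669n were members. All 8 seeds differed from each other, so among these 8, which mix the 2 repeat types, a shared family number did not mean a shared seed. Whether members encoded in Sfmbt2 share seeds could not be seen from these sequences. Outside the family, miR-668-5p shared the seed of miR-467h. It was counted 5, 3 and 12 times in the untreated libraries and 6, 5 and 7 times in the ET1 libraries, too few to be tested.

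A whole hairpin, also from outside Sfmbt2, shows how the repeats run through that precursor. That of miR-466k (RefSeq GRCm38.p6, chr3:85467377-85467498, plus strand) is given with the mature miRNA in capitals.
Mir466k: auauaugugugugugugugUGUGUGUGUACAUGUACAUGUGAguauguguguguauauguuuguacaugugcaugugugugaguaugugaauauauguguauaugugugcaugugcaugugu
U and G made up 75.4% of its 122 bases. The alternation of U and G before the capitals continues into the seed.

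RefSeq lists 82 precursor genes of the 4 families. Of these, 79 could give a member row by name, and Mir669g, Mir669i and Mir669j, all in Sfmbt2, had no row. Including these 3, 72 of the 82 lay within Sfmbt2 (GRCm38.p6, chr2:10370440-10595253, plus strand), on its strand and in a single intron, intron 10 of the GENCODE M21 transcript Sfmbt2-201. The cluster spanned 51617 bases of that intron, chr2:10466663-10518279. The other 10 precursors lay on chromosomes 3, 5, 7, 9, 10, 11 and 13. Among them were Mir466i (chr13:17747473-17747593, plus strand, opposite to Cdk13), Mir466q in an intron of Tnik, and Mir297-1 (chr7:10958437-10958512, minus strand). By name, 47 rows came from Sfmbt2 copies alone, 9 from other loci alone and 5 from both. A single precursor could give rise to 44 rows, and the other 17 had several. The 5p row of miR-467a had 10 possible precursors, and the joint 3p row of miR-669a and miR-669o had 13, so a value of such a row cannot be given to a single copy.

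The 6 libraries held 18127265 to 20895432 tags. Known miRNAs took 30.1% to 45.6% of the tags of untreated libraries and 22.6% to 25.5% of ET1 libraries, while rRNA fragments took 3.22% to 5.63% and 7.12% to 11.0%. The TMM factors that put the libraries on one scale were 0.816 to 0.955 for untreated and 1.08 to 1.18 for ET1 libraries. Levels below are CPM (tags of a miRNA for each 1000000 known miRNA tags) after that scaling, with SD over 3 libraries, and a count of 3 tags corresponded to 0.423 to 0.634 CPM. All 3 smooth muscle miRNAs chosen as markers of the labelled cell type were present, at a summed 20370 to 27740 CPM in untreated and 12960 to 15530 CPM in ET1 libraries. Other cell types were represented too. The 2 endothelial markers summed to 1107 to 1883 CPM in untreated and 114 to 162.5 CPM in ET1 libraries, and the 4 male germ cell markers to 252.3 to 1015 and 343.8 to 4577 CPM. The 6 haematopoietic markers summed to 324.7 to 954.1 and 78.89 to 339.8 CPM. For the 5 epithelial markers the sums were 109.9 to 342.8 and 75.11 to 129.3 CPM, and for the 3 striated muscle markers 275.6 to 359.5 and 109.5 to 210.2 CPM. In the edgeR test below, 1 endothelial and 1 haematopoietic marker passed, both lower in ET1 libraries. In bulk RNA, fewer cells of a type and less RNA per cell cannot be told apart, and the part of these cells in the values below was not tested.

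The family was a minor part of the miRNA pool. Its 61 rows together held 0.126%, 0.150% and 0.144% of known miRNA tags in the untreated libraries (mean 0.140% ± 0.0124) and 0.157%, 0.215% and 0.149% in the ET1 libraries (mean 0.173% ± 0.0360). The highest value was that of ET1 library 2, and the lowest ET1 library lay below the highest untreated library, so the groups overlapped. The mean difference of 0.0337 percentage points became −0.00559 when known miRNA tags were multiplied by the TMM factors, and −0.0117 when all tags of a library were the denominator. Its direction thus depended on the scale. No test was made of this sum.

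**Figure D1:**
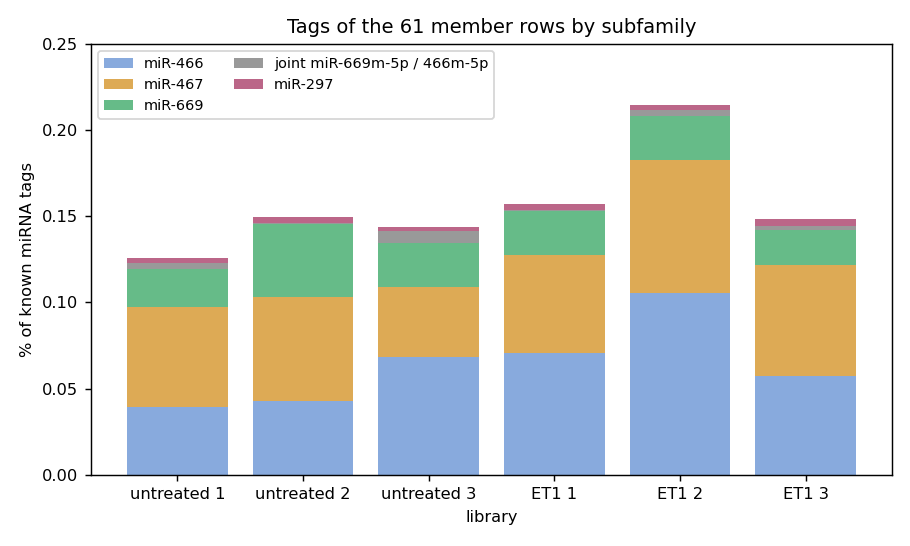
Percent of known miRNA tags (vertical axis, from 0) held by the 61 rows in each of the 6 libraries, stacked by subfamily. The miR-466 and miR-467 segments make up most of every bar, and ET1 library 2 has the tallest bar, 0.215%.

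Over the 6 libraries, miR-466 held 39.0% of the family's tags, miR-467 38.6%, miR-669 18.5%, miR-297 2.15% and the joint miR-669m-5p and miR-466m-5p row 1.78%. The balance between subfamilies moved from library to library within a group. The miR-466 part of the family's tags was 31.4%, 28.6% and 47.4% in untreated libraries 1 to 3, and 45.1%, 49.2% and 38.7% in ET1 libraries 1 to 3. Untreated library 3 thus lay within the ET1 range and apart from the other two untreated libraries. The miR-669 part was highest in untreated library 2, at 28.3%, and lay between 12% and 17.9% in the other 5 libraries. As a percent of known miRNA tags, miR-466 took 0.0502% ± 0.0156 in untreated and 0.0780% ± 0.0249 in ET1 libraries, and miR-467 took 0.0532% ± 0.0107 and 0.0659% ± 0.00997. For miR-669 the values were 0.0300% ± 0.0109 and 0.0239% ± 0.00278. The miR-467 difference of 0.0127 percentage points was −0.0049 with all tags as the denominator and −0.0029 with TMM-scaled tags. The miR-466 difference of 0.0279 was 0.00025 with all tags and 0.013 with TMM-scaled tags. The miR-669 difference of −0.0061 was again −0.0061 with all tags and −0.0136 with TMM-scaled tags, but 4.9e-05 without untreated library 2. Rows placed by name in Sfmbt2 copies alone held 73.2% of the family's tags and rows placed in other loci alone 21.3%.

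A filter on low counts, made with the group, kept 616 known miRNAs for testing, and 36 of the 61 rows were among them. The other 25 rows comprised 5 with no tag in any library (miR-466l-3p, miR-466l-5p, miR-466n-3p, miR-467f and miR-669m-3p) and 20 with at most 29 tags in a library and 84 tags over all. Of the 61 rows, 24 averaged more than 10 CPM and 3 more than 100 CPM. The most abundant, miR-467d-5p, ranked 103 among the known miRNAs.

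In the quasi-likelihood test of edgeR, with Benjamini-Hochberg adjustment over all 616 miRNAs, 0 of the 36 tested members passed at 0.05, against 11 of all tested miRNAs (1.79%; 1.3% higher and 0.487% lower in ET1 libraries). At an unadjusted p under 0.05 the counts were 0 of the 36 and 113 of 616 (18.3%). DESeq2 and limma-voom also called 0 members, with 1 and 0 at an unadjusted p under 0.05. The lowest adjusted p of a member in edgeR was 0.338, for miR-669h-5p. The median log2 fold change of ET1 over untreated was −0.10 over the members, with 15 positive and 21 negative, and 0.01 over all tested miRNAs. After TMM scaling 0 members had ET1 libraries all above the untreated ones and 2 had them all below, against 12.5% and 11% of all tested miRNAs. These were miR-669o-5p and miR-466e-5p, of which the latter is named after its values were seen. With library sizes alone, 6 members lay wholly above and 0 below, against 20.9% and 5.03%. That scale moved the median of all tested miRNAs to 0.37 and of the members to 0.27, with 24 members positive and 12 negative. Without ET1 library 2, 8 were positive and 28 negative. A miss of the threshold does not show that levels were equal, and the 95% intervals of 33 of the 36 reached beyond 1 log2 unit in at least one direction.

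**Figure D2:**
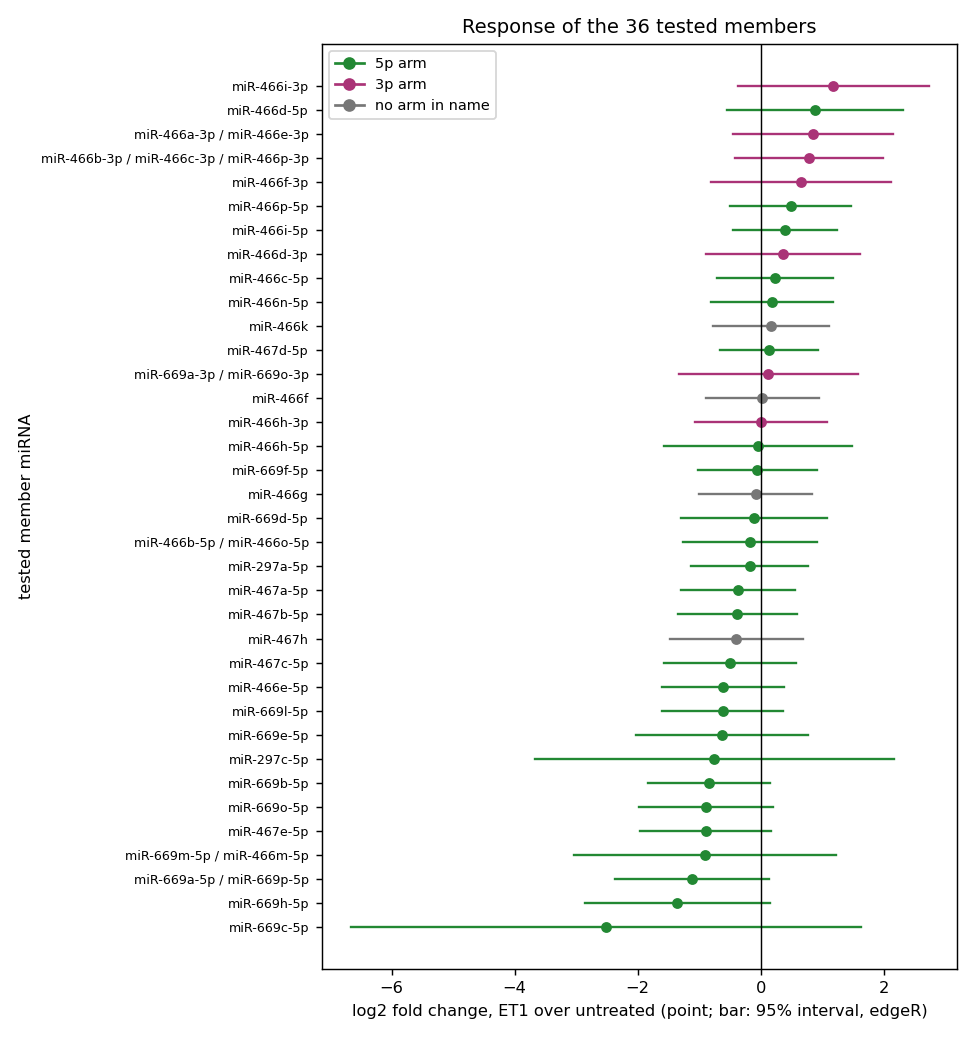
Log2 fold change of ET1 over untreated (horizontal axis; points) with its 95% interval from edgeR (bars) for the 36 tested members, coloured by arm. All 36 intervals cross 0, the 7 points of 3p arms lie at or right of 0, and miR-669c-5p has the widest interval.

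The most abundant member was miR-467d-5p, from a single precursor in the Sfmbt2 intron (chr2:10507630-10507714). It measured 388, 423 and 290 CPM in untreated libraries 1 to 3 and 321, 524 and 362 CPM in ET1 libraries 1 to 3. The highest library was ET1 library 2 and the lowest untreated library 3, but the groups overlapped widely. The means were 367 ± 68.7 and 402 ± 107 CPM, a log2 fold change of 0.13 (SE 0.37, 95% interval −0.67 to 0.93; edgeR adjusted p = 0.88). Its untreated counts were 2754, 2986 and 1731 tags, so counting error alone would give a coefficient of variation (CV) of 2.0%, against 18.7% observed. Its direction was not stable: it was −0.14 without ET1 library 2.

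Other miR-467 members followed at a distance. miR-467a-5p, which 10 precursor copies can give, measured 103, 155 and 69.5 CPM in untreated and 69.9, 98.5 and 86.0 CPM in ET1 libraries. All 3 ET1 libraries lay inside the untreated range. miR-467c-5p, from a single copy near the 5′ end of the cluster (chr2:10473931-10474027), measured 97.6, 80.3 and 26.8 CPM in untreated and 44.5, 50.1 and 50.4 CPM in ET1 libraries. Its spread differed by group, with a CV of 54.0% in untreated and 6.82% in ET1 libraries, because of the low untreated library 3. The log2 fold changes were −0.37 and −0.50, with edgeR adjusted p-values of 0.71 and 0.66. miR-467c-5p was −0.13 without untreated library 1. Of the 6 tested miR-467 rows, 1 was positive and 5 were negative, with a median of −0.39. With library sizes alone, 4 were positive and 2 negative, with a median of 0.01.

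The second member by level was miR-466i-5p. By name it has a single precursor, outside Sfmbt2, on chromosome 13 at the position given above. Its sequence was not available here, and tags of near-identical members could have been counted with it, so the origin of its tags was not tested. miR-466i-5p measured 245, 225 and 295.9 CPM in untreated and 316, 469 and 224 CPM in ET1 libraries. ET1 library 2 was highest and ET1 library 3 the lowest of all 6, so the treated range enclosed the untreated one. The means were 255 ± 36.6 and 336 ± 124 CPM (log2 fold change 0.40, SE 0.39, 95% interval −0.45 to 1.24; edgeR adjusted p = 0.65). Without ET1 library 2 the log2 fold change was 0.06. Together with miR-467d-5p it held 42.9% of the family's tags, and the 5 most abundant members held 61%.

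Its other arm, miR-466i-3p, whose A and C repeat is shown above, had the highest log2 fold change of the tested members. It measured 3.67, 6.94 and 20.5 CPM in untreated and 12.6, 44.6 and 13.2 CPM in ET1 libraries. Untreated library 3 exceeded ET1 libraries 1 and 3, so the groups overlapped. The log2 fold change was 1.18 (SE 0.70, 95% interval −0.37 to 2.73; edgeR adjusted p = 0.38). It was 0.32 without ET1 library 2 and 2.17 without untreated library 3.

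Within miR-466, miR-466h-3p was the most abundant member from the Sfmbt2 intron and the only 3p row above 100 CPM. It measured 71.6, 69.2 and 187 CPM in untreated and 74.2, 168 and 86.5 CPM in ET1 libraries. A single library of each group stood well above the others, untreated library 3 and ET1 library 2, and the means did not separate, at 109 ± 67.1 and 109 ± 50.7 CPM. The log2 fold change was 0.003 (95% interval −1.07 to 1.08; edgeR adjusted p = 0.999). Its 5p arm, miR-466h-5p, measured 20.2, 46.0 and 6.88 CPM in untreated and 40.4, 21.1 and 9.48 CPM in ET1 libraries. It was highest in untreated library 2, where the 3p arm was lowest, and lowest in untreated library 3, where the 3p arm was highest. The 3p arm of miR-466h thus held 78.0%, 60.1% and 96.4% of the hairpin's tags in untreated and 64.8%, 88.8% and 90.1% in ET1 libraries. miR-466f-3p, which 4 precursors on chromosomes 2 and 13 can give, measured 11.0, 31.0 and 67.4 CPM in untreated and 34.8, 104 and 33.2 CPM in ET1 libraries, a 9.47-fold range. miR-466c-5p had the narrowest untreated spread, 22.4 ± 2.19 CPM with a CV of 9.80%, and stood at 26.4 ± 6.79 CPM in ET1 libraries. miR-466p-5p stood at 5.90 ± 0.634 and 8.28 ± 2.90 CPM, with a log2 fold change of 0.49 that was 0.14 without ET1 library 2. Of the 17 tested miR-466 rows, 13 were positive and 4 negative, with a median of 0.24. With all small RNA rows fitted together 6 were positive and 11 negative, and without ET1 library 2 there were 8 and 9, with a median of −0.005.

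**Figure D3:**
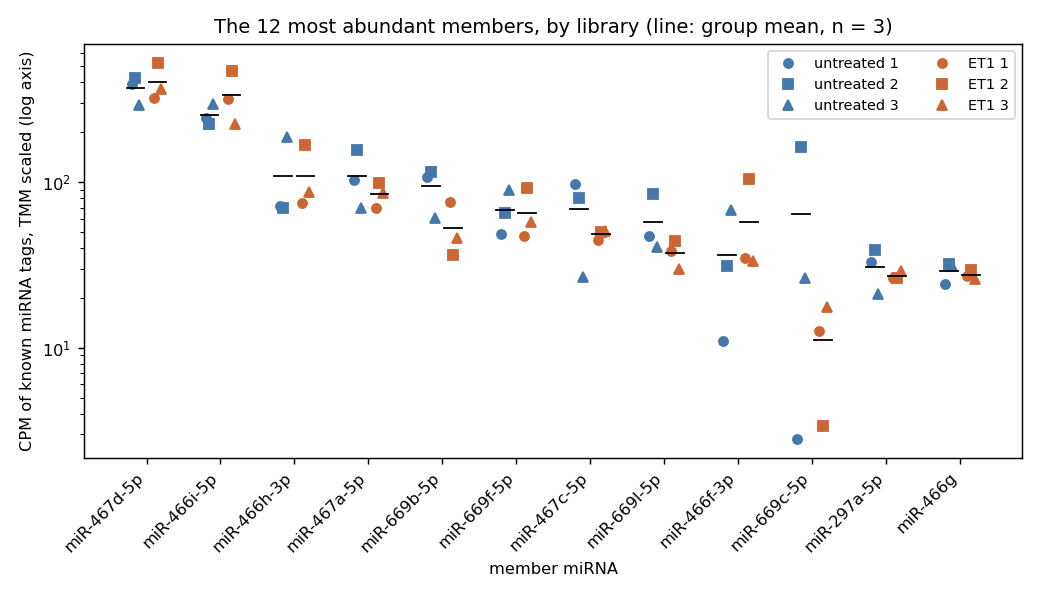
TMM-scaled CPM (vertical log axis) of the 12 most abundant members in each library, with untreated and ET1 libraries side by side and black lines at the group means (n = 3). Points of the groups interleave for every member shown, and miR-669c-5p spreads from 2.82 to 164 CPM.

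The miR-669 members were of moderate level. miR-669b-5p, from a single precursor (chr2:10467790-10467886), measured 107, 115 and 60.7 CPM in untreated and 76.1, 36.1 and 46.2 CPM in ET1 libraries. ET1 library 1 exceeded untreated library 3, so the groups overlapped. The means were 94.4 ± 29.5 and 52.8 ± 20.8 CPM, a log2 fold change of −0.84 (SE 0.46, 95% interval −1.83 to 0.15; edgeR adjusted p = 0.37). Its neighbour miR-669f-5p (chr2:10467229-10467349) stood at 67.8 ± 20.7 and 65.2 ± 23.5 CPM, and miR-669l-5p (chr2:10468971-10469068) at 57.3 ± 23.7 and 37.3 ± 7.01 CPM. Their log2 fold changes were −0.06 and −0.62, the latter −0.23 without untreated library 2. The precursors of all 3 lie near the 5′ end of the cluster.

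miR-669c-5p (chr2:10509296-10509404) had the lowest log2 fold change and the widest spread of the tested members. It was counted 20, 1156 and 157 times in untreated and 67, 16 and 100 times in ET1 libraries, or 2.82, 164 and 26.3 CPM against 12.6, 3.38 and 17.6 CPM. Untreated library 2 stood far above all others, and untreated library 1 was the lowest of all 6. The 58.0-fold range between libraries lay within the untreated group. The log2 fold change was −2.52 (SE 1.58, 95% interval −6.67 to 1.63; edgeR adjusted p = 0.49), and −0.39 without untreated library 2.

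All 9 tested 5p rows of miR-669 had a negative log2 fold change after TMM scaling, with a median of −0.84, beside 53.0% negative among the tested 5p rows of all known miRNAs. With library sizes alone 7 of the 9 were negative, with a median of −0.44. Without untreated library 2 the median was −0.37, with 8 of 9 negative. The lowest after miR-669c-5p were miR-669h-5p, at 3.03 ± 0.925 CPM in untreated and 1.2 ± 0.979 CPM in ET1 libraries, and the joint miR-669a-5p and miR-669p-5p row, at 10.0 ± 2.78 and 4.6 ± 3.67 CPM. Their log2 fold changes were −1.35 and −1.12, and the edgeR adjusted p-values were 0.338 and 0.339. Single libraries moved both: miR-669h-5p was −2.25 without ET1 library 2, and the joint row was −1.97 without ET1 library 1 (edgeR adjusted p = 0.082) and −0.73 without ET1 library 2. miR-669o-5p measured 18.9, 43.8 and 18.8 CPM in untreated and 16.1, 18.6 and 9.13 CPM in ET1 libraries. Every ET1 library lay below every untreated one, with 18.6 CPM as the highest ET1 value and 18.8 CPM as the lowest untreated one. The log2 fold change was −0.89, with an edgeR adjusted p of 0.37.

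The joint miR-669m-5p and miR-466m-5p row, kept apart from both subfamilies and described after its values were seen, was counted 259, 35 and 407 times in untreated and 41, 155 and 102 times in ET1 libraries. Its untreated libraries held both its lowest and its highest count (log2 fold change −0.91; edgeR adjusted p = 0.67).

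miR-297 was the least abundant of the 4 subfamilies. miR-297a-5p, which precursors on chromosomes 2 and 7 can give, measured 32.7, 38.7 and 21 CPM in untreated and 26.3, 26.4 and 29.0 CPM in ET1 libraries. All 3 ET1 libraries lay within the untreated range (log2 fold change −0.18; edgeR adjusted p = 0.87). miR-297c-5p, from the Sfmbt2 intron (chr2:10509016-10509113), measured 3.10, 5.24 and 3.52 CPM in untreated libraries and 0.376, 0 and 6.49 CPM in ET1 libraries. ET1 library 3 held the highest value and ET1 libraries 1 and 2 the lowest, the latter with no tag (log2 fold change −0.75; edgeR adjusted p = 0.80). The value moved widely, to −2.39 in limma-voom, and, leaving out ET1 library 1, 2 or 3 in turn, to −0.29, −0.23 and −4.20. miR-297b-5p was not tested, with at most 6 tags in a library.

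The arms of the hairpins behaved differently across libraries. The 7 tested 3p rows were highest in ET1 library 2 in 6 cases and lowest in untreated library 1 in 6 cases. Among the 268 tested 3p rows of all known miRNAs, ET1 library 2 was highest in 18.3% and untreated library 1 lowest in 17.9%. Within the untreated group, library 3 was the highest in 6 of the 7, and the share of this over all known miRNAs is not given here. The 22 rows of 3p arms together took 0.00854%, 0.0117% and 0.0300% of known miRNA tags in untreated and 0.0170%, 0.0421% and 0.0188% in ET1 libraries. The rRNA share was 3.22%, 4.82% and 5.63% in untreated and 7.12%, 11.0% and 10.2% in ET1 libraries. The libraries had the same order by rRNA share and by 3p share, except for untreated library 3. With 5.63% rRNA, that library had a higher 3p share than ET1 libraries 1 and 3, with 7.12% and 10.2%. The part of rRNA in this pattern was not tested. Several 3p rows share repeat sequence or precursors, so they are not independent of each other. Among the 25 tested 5p rows, untreated library 2 was highest in 12, beside 27.5% of the tested 5p rows of known miRNAs.

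**Figure D4:**
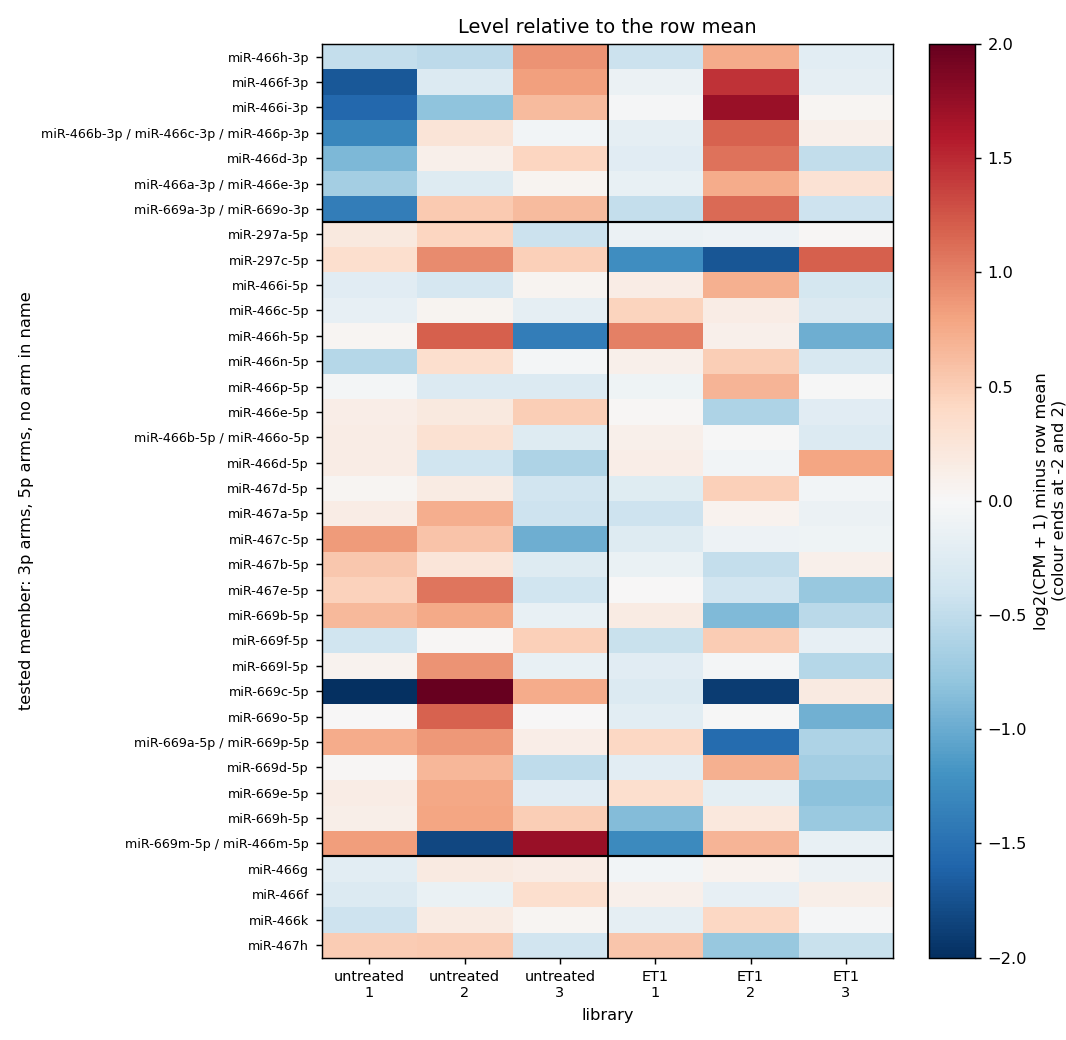
Log2(CPM + 1) minus the mean of the row (colour) for the 36 tested members (rows, grouped as 3p, 5p and no arm in the name) in the 6 libraries (columns). In the 3p block untreated library 1 is low and ET1 library 2 high, and in the 5p block untreated library 2 holds the highest value of 12 of 25 rows.

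After TMM scaling all 7 tested 3p rows had a positive log2 fold change, with a median of 0.65, beside 53.0% positive among the 268 tested 3p rows of all known miRNAs. None passed the test. This direction rested on ET1 library 2: without it 3 of the 7 were positive and the median was −0.10. With library sizes alone the 7 stayed positive, at a median of 0.95, while with all small RNA rows fitted together 4 of 7 were positive, at a median of 0.32 where the median of all known miRNAs was −0.46. The 25 tested 5p rows had 6 positive and 19 negative values with a median of −0.38, and 13 positive and 12 negative with library sizes alone. The joint 3p row of miR-466b, miR-466c and miR-466p had a log2 fold change of 0.78, that of miR-466a and miR-466e 0.84, and that of miR-669a and miR-669o 0.12. The 5p row with the highest value was miR-466d-5p, at 0.89, but with a mean level of only 1.95 CPM.

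The use of arms within a hairpin could be followed for 9 hairpins with both arms tested, some of which share a joint row. The 3p arm was the minor one in miR-466i, with 3.65% ± 2.56 of the hairpin's tags in untreated and 6.02% ± 2.46 in ET1 libraries, and the major one in miR-466h, with 78.2% ± 18.2 and 81.2% ± 14.3. Rows of the same family number, matched to hairpins by name, thus differed in their dominant arm. The locus from which their tags came was not tested. For miR-466c the percent was 24.3 ± 10.0 and 32.6 ± 12.9, and for miR-669o 25.2 ± 15.2 and 38.7 ± 12.5. The groups were apart only for miR-466e, at 15.1%, 21.7% and 23.1% in untreated and 26.2%, 57.9% and 40% in ET1 libraries, where the 3p row also carries miR-466a-3p. Exact permutation p-values, from tests on both sides, ran from 0.1 to 0.9, with 0.1 the smallest that 3 libraries against 3 allow, and from 0.72 to 0.9 adjusted over the 9 hairpins. In 8 of the 9 the ET1 mean was higher, and miR-466d was the exception. These 9 are not independent, as miR-466b, miR-466c and miR-466p share a joint 3p row, and miR-669a and miR-669o share another. Where the 3p row is joint, its percent also holds tags of other hairpins. The share over hairpins of all known miRNAs is not given here, so the count is a description only.

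Along the Sfmbt2 intron, levels differed widely between rows of neighbouring hairpins. Of the rows with a single precursor there, 32 had tags, and their precursors lay 96.2 to 148 kb from the start of the gene. miR-467d-5p at 385 CPM (mean of 6 libraries) had its precursor 288 bases before that of miR-466a-5p, at 0.176 CPM, whose 3p arm falls in the joint miR-466a-3p and miR-466e-3p row at 2.56 CPM. It lay 1909 bases after that of miR-467e, whose 5p row averaged 16.5 CPM. At the start of the cluster miR-669f-5p and miR-669b-5p averaged 66.5 and 73.6 CPM, with miR-669e-5p between them at 2.53 CPM. These neighbours were chosen after their values were seen. The 3p rows on the same hairpins were low: miR-669b-3p and miR-669e-3p averaged 0.0704 CPM and miR-467d-3p 0.588 CPM. No row with tags and a single precursor came from between 111 and 135 kb. That stretch holds 27 precursors, among them 8 of the 12 Mir669a, 8 of the 10 Mir467a and 6 of the 8 Mir466b copies. All 27 give rows that several copies share, so no such row could come from there, and its absence says nothing of levels. miR-467a-5p, with 8 of its 10 copies in that stretch, averaged 97.0 CPM.

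**Figure D5:**
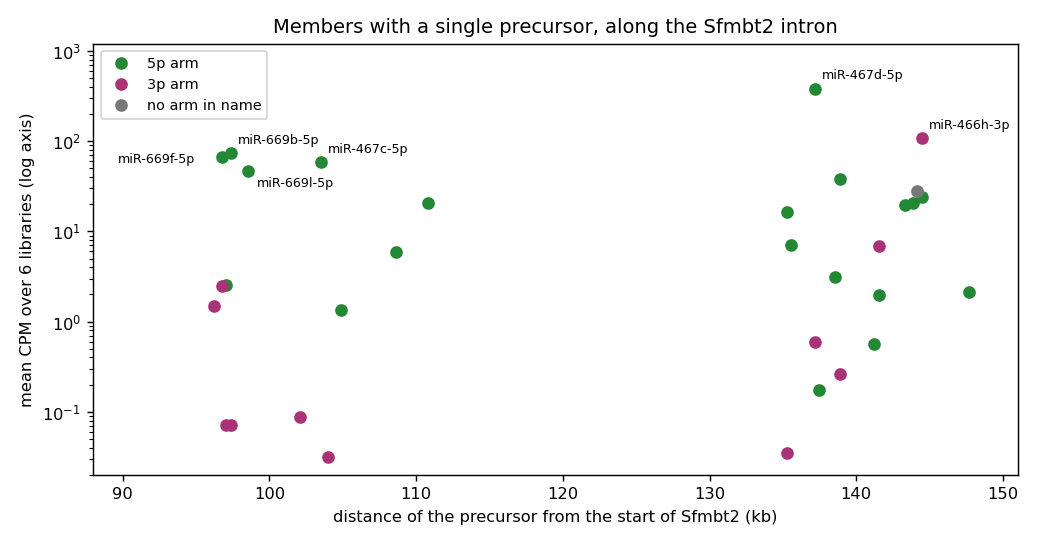
Mean CPM over the 6 libraries (vertical log axis) of the 32 rows with tags and a single precursor within Sfmbt2, against the distance of the precursor from the start of the gene in kb, coloured by arm. miR-467d-5p and miR-466h-3p stand highest, and the other 3p rows lie below 10 CPM.

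Taken over all tested members, the spread between libraries was close to that of all tested miRNAs, but it was wider for the 3p rows. The median CV over the tested members was 35.4% in untreated and 38.1% in ET1 libraries, against 33.2% and 34.9% over all 616 tested miRNAs. By arm it was 61.5% and 70.7% over the 7 3p rows and 31.2% and 35% over the 25 5p rows. The median CV by arm over all known miRNAs is not given here. These are descriptions, as rows of shared sequence are not independent.

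The authors' deposited table compared the groups on counts pooled over libraries, and so without the spread between them. Of the 50 members with a q-value in the authors' deposited table, 37 had one under 0.05 (74%), 26 higher and 11 lower in ET1, against 774 of 1147 known miRNAs (67.5%; 48% higher and 19.5% lower). Of the 36 members tested here, the authors' deposited table had 28 under 0.05. The authors' deposited table had some q-values below their own p-values, such as 0.035 at a p-value of 0.099 for miR-297a-5p. It gave miR-466i-5p 5087 and 5179 pooled tags, a log2 ratio of 0.72 and a q-value of 1.2e-145 in the authors' deposited table, against an edgeR adjusted p of 0.65. For miR-669c-5p the authors' deposited table gave 1333 and 183 tags, a log2 ratio of −2.17 and a q-value of 1.9e-126, although 1156 of the untreated tags came from a single library. In 4 of the 28, among them miR-669f-5p and miR-297a-5p, the log2 ratio in the authors' deposited table was positive and that of edgeR negative. Each log2 ratio in the authors' deposited table exceeded the log2 ratio of its pooled counts by 0.70. The same offset applied to every member with pooled counts in both groups.

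Other imprinted miRNA genes gave a comparison outside the family. Of 19 rows named miR-296, miR-298, miR-335, miR-344, miR-483 or miR-675, 7 were tested and 2 passed in edgeR, both higher in ET1 libraries, with a median log2 fold change of 0.81 over the 7. The 2 were miR-296-3p, at 43.2 ± 7.42 and 186 ± 59.7 CPM, and miR-298-5p, at 29.4 ± 5.85 and 131 ± 34.1 CPM (edgeR adjusted p = 0.024 for both). Their log2 fold changes were 2.11 and 2.16. Their levels lie within the range of the members above, so miRNAs of such a level could pass with these 6 libraries at changes of that size. This does not cover smaller changes or rows of wider spread. Whether the response of the family differed from that of these genes was not tested.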

How the data were processed

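The authors deposited tag counts per small RNA row, and beside them values headed TPM which were an RPM over all rows with no length term (per the file headers and the values; the RPM was not used). Bowtie2 and mm10 are named per the submitters' processing notes. How tags that match several loci were counted is not given in the sources used here, and tags of near-identical members could have gone to any of them. The authors' deposited comparison table gives pooled counts, a log2 ratio, and p-values and q-values, with no settings.

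The test of known miRNA rows was that of edgeR 4.0.16 under R 4.3.3 (with TMM over these rows, default expression filter with the group, robust quasi-likelihood fit, two-sided, Benjamini-Hochberg at 0.05). It was also run on simulated data with known changes. The spread of those data was fixed and not taken from these libraries, so that run does not show which changes could be found here. Intervals are 95%. Alternatives used DESeq2 1.42.0, limma 3.58.1 (voom), other scalings and filters, all rows together, the replicate number as a block, and leaving out each library. No library repeated another: within groups, chi-square divided by its degrees of freedom was at least 336. The labels do not state separate cultures or animals. The p-values therefore reflect the spread of these 6 libraries alone, possibly technical. Positions are RefSeq GRCm38.p6, the same assembly as mm10, 1-based, with introns from GENCODE M21, and members were matched to precursors by symbol.

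Members named were the 3 most abundant of each subfamily, the 3 highest and 3 lowest log2 fold changes, both arms of the 5 most abundant hairpins with both arms tested, and the widest and narrowest untreated spread. Any other member was named after its values were seen. The members, lists and rules were chosen with earlier results of these data known.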

Additional observations from a re-analysis of the deposited data

How the results depend on the processing

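No member passed under any of the 14 alternatives, where the lowest adjusted p was 0.072, for miR-297c-5p without ET1 replicate 3. The count of all known miRNAs called, 11 in edgeR, was 41 with library sizes alone, 39 with DESeq2, 5 with limma-voom, 37 with no filter, 0 with all rows fitted together (116 at an unadjusted p under 0.05), and 2 to 30 when each library was left out, with 2 without ET1 replicate 3, 5 without untreated replicate 2, 25 without untreated replicate 3 and 30 without ET1 replicate 1. The cause was not tested. With the replicate number as a block it was 21, and 0 members. Same-numbered libraries correlated at 0.29, 0.069 and 0.28, and every library correlated best with its own number. With 3 libraries in a group, these values do not settle whether the numbers pair libraries. The members' share difference, 0.0337 percentage points, was −0.0117 with all tags as the denominator and −0.0056 with TMM-scaled tags, and 0.013 to 0.046 when each library was left out.

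Of 23 named members tested, 10 changed sign in at least 1 alternative. With library sizes alone the log2 fold change was 0.21 for miR-297a-5p, 0.38 for miR-466h-5p, 0.026 for miR-467a-5p and 0.28 for miR-669f-5p. With all rows fitted together it was −0.27 for miR-466c-5p, −0.34 for miR-466h-3p, −0.0499 for miR-466i-5p, −0.38 for miR-467d-5p and −0.29 for miR-669a-3p / miR-669o-3p. For miR-466h-3p it was −0.018 with DESeq2 size factors in edgeR, −0.018 in DESeq2 and −0.011 with no filter. For miR-466h-5p it was 0.10 in limma-voom, 0.047 at a minimum of 10 CPM and 0.12 with the replicate block, and for miR-669f-5p 0.0089 at that minimum. Leaving out each library in turn gave −0.37 to 0.010 for miR-297a-5p, −0.10 to 1.49 for miR-466f-3p, −0.45 to 0.66 for miR-466h-3p, −0.71 to 0.80 for miR-466h-5p, −0.14 to 0.25 for miR-467d-5p, −0.71 to 0.50 for miR-669a-3p / miR-669o-3p and −0.40 to 0.22 for miR-669f-5p. Depth limits the 25 untested members, and the 3-tag floor lay at 0.423 to 0.634 CPM, for counting error only.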
